A study of Mus musculus with 12 samples.

Results

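The 9 genes described here, Cx3cr1, P2ry12, Tmem119, Csf1r, Trem2, Tyrobp, Aif1, Siglech and Gpr34, mark homeostatic microglia, the resident macrophages of the brain. They were chosen by name, and each was read from its probe set with the highest mean over the 12 samples among probe sets that carry 1 gene symbol. All 9 had exactly 1 such probe set, out of 18820 gene symbols measured in this way and 35556 probe sets in all.

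Microglia enter the brain early in development, renew themselves there and keep extending fine processes through the tissue. Neurons and other cells hold them in a surveying state through surface receptors for chemokine, growth factor, nucleotide and lipid signals. Some of these genes, such as P2ry12 and Tmem119, are known to be reduced when microglia turn to inflammatory or phagocytic states, while Trem2, Tyrobp and Aif1 are kept or raised there.

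Arrays were run on RNA of medial prefrontal cortex, micro-dissected from C57BL/6N mice aged 12 weeks. Prenatal exposure was to an intravenous dose on gestation day 17, either saline (controls) or 5 mg/kg of poly(I:C), which is double-stranded RNA made to mimic viral infection. The offspring had been tested behaviourally as adults before the tissue was taken. There were 6 control and 6 poly(I:C) offspring with 1 array each, and the comparison asks whether microglial gene expression in adulthood differs after this prenatal exposure.

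Values are log2 expression per probe set, so a difference of 1 would be a 2-fold change. The labels call the samples biological replicates and name no litter or sex, so the spread behind each p-value is that of these 12 offspring, and littermates may be among them. Array medians lay between 5.15 and 5.21, and with 12 arrays the precision is limited by their number. The RNA came from whole tissue, in which fewer microglia and less RNA per microglial cell cannot be told apart. Markers of cortical neurons gave list means of 9.29 to 9.40 in all animals. At a limma adjusted p under 0.05, 6 of 10 oligodendrocyte markers and 1 of 8 striatal neuron markers differed between the groups. So did 2.83% of all probe sets tested. The oligodendrocyte and striatal calls are given with the gene lists further on, with the animals on which they depend.

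Promoter windows from RefSeq (build GRCm38.p6) were held for 5 of the 9 genes, and in 3 of them the 250 bases before the start lie wholly outside the annotated gene. These 3 are printed to show the region before the start of a lipid receptor (Trem2), a chemokine receptor (Cx3cr1) and a nucleotide receptor (P2ry12). Capitals mark GAGGAA, a core of sites for the myeloid factor PU.1, and CAGAC, a short SMAD site of TGF-beta signalling, on either strand (as TTCCTC and GTCTG where the match is on the other strand). Trem2 is the forward strand of chr17:48346151-48346400, Cx3cr1 the reverse strand of chr9:120068297-120068546 and P2ry12 the reverse strand of chr3:59262986-59263235.
Trem2: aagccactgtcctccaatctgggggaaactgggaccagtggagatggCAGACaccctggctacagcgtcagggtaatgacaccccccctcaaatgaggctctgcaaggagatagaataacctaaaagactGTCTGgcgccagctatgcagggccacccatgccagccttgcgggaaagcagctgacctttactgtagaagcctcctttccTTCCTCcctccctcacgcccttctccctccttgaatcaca
Cx3cr1: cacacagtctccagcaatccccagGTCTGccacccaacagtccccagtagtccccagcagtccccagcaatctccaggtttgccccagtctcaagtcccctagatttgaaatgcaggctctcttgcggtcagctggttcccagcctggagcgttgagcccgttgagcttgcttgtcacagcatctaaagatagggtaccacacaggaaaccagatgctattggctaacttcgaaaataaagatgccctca
P2ry12: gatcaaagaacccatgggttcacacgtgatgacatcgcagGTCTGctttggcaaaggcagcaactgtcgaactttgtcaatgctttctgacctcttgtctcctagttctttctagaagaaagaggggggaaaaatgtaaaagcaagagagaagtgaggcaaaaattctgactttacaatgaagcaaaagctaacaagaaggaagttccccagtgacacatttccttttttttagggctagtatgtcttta

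The PU.1 core was found once in the Trem2 window, 40 bases before the start, and once in that of Aif1, 7 bases before it. It stands in 23.3% of all 32851 promoter windows of the same length. CAGAC was found in the windows of Trem2, Cx3cr1, P2ry12 and Siglech and in 42.2% of all windows. The longer PU.1 sequence GAGGAAGT, which contains the core, and the composite PU.1-IRF motif were found in none of the 5 windows, and in 2.44% and 2.3% of all windows. These are matches of letters on both strands and describe no binding.

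In the adult prefrontal cortex none of the 9 microglial genes differed between poly(I:C) and control offspring at a limma adjusted p under 0.05. At that threshold 2.83% of the 23099 probe sets tested were called, 2.02% higher and 0.805% lower after poly(I:C). At an unadjusted p under 0.05, 0 of the 9 passed in limma, against 19.1% of all probe sets, and with ordinary least squares in place of moderated variances 0 passed after adjustment and 1 before it. In all 9 genes the values of the groups overlapped, while 2.37% of all probe sets did not overlap. The differences ran from -0.034 for P2ry12 to 0.066 for Siglech, with 7 below and 2 above 0. Their median was -0.019, beside 0.0030 over all probe sets, and the median size of the difference was 0.025, beside 0.044 over all probe sets.

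The intervals show what size of change these arrays leave possible. Over the 9 genes the 95% intervals reached from -0.15, the lower bound for Trem2, to 0.17, the upper bound for Tmem119, and each included 0. On a linear scale the outermost lower bound is a change of -9.75%. A p that misses the threshold does not show that the groups are alike, and for each gene changes within its own interval were not resolved.

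**Figure D1:**
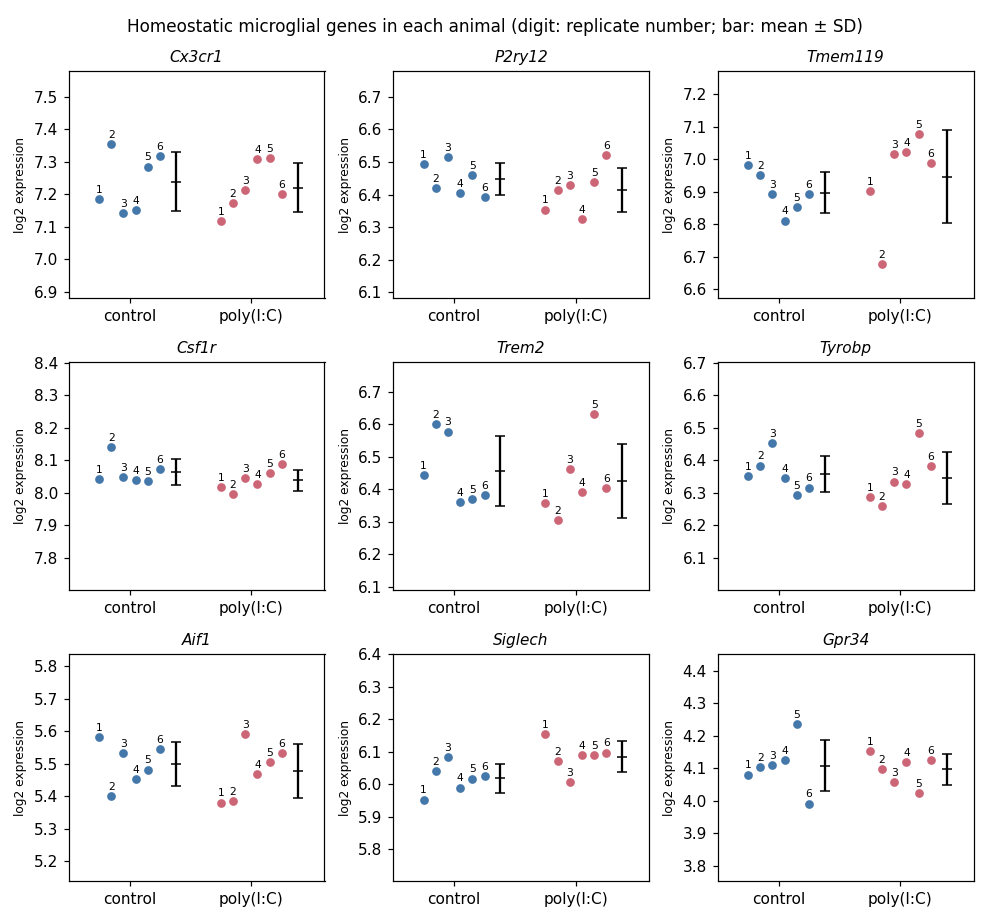
Log2 expression of each microglial gene (vertical axes, all spanning 0.7) in the 6 control and 6 poly(I:C) animals, with each dot an animal marked by its replicate number and bars giving the mean and SD. In every panel the 2 groups overlap, and the lowest Tmem119 value is that of poly(I:C) 2, at 6.68.

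Cx3cr1 and Csf1r encode the receptors through which microglia receive the chemokine fractalkine, made by neurons, and the growth factors that keep them alive. Cx3cr1 ranged in controls from 7.14 through a median of 7.23 to 7.35, and after poly(I:C) from 7.12 through 7.21 to 7.31. The highest value was that of control 2 and the lowest that of poly(I:C) 1, and the groups overlapped over nearly their whole range. The difference was -0.019 ± 0.045 (SE, n = 6 each; 95% interval -0.11 to 0.077; limma adjusted p = 0.86). It was above 0 when control 2 (0.0045), poly(I:C) 1 (0.0021) or both controls 5 and 6 (0.012) were left out, so its direction depends on single animals. After quantile normalization the difference of Cx3cr1 was -0.054 (limma adjusted p = 0.53).

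Csf1r had the narrowest interval of the 9 genes. Its controls ran from 8.04 through a median of 8.05 to 8.14 and its poly(I:C) samples from 7.997 through 8.04 to 8.09. Control 2 stood above the other controls, the nearest of which was at 8.07. The groups differed by -0.025 ± 0.029 (SE; interval -0.087 to 0.037; limma adjusted p = 0.69), and without control 2 by -0.0094. After quantile normalization the difference of Csf1r was -0.059 (limma adjusted p = 0.28).

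The ligands of these receptors showed as little. Cx3cl1, which encodes fractalkine, averaged 9.64 ± 0.046 in the control animals and 9.66 ± 0.046 in the exposed animals (SD, n = 6), a difference of 0.027 ± 0.032 (SE; limma adjusted p = 0.68). Il34, the neuronal ligand of Csf1r, differed by 0.031 ± 0.035 (limma adjusted p = 0.67), and Csf1, the other ligand, by 0.017 ± 0.043 (limma adjusted p = 0.87). The differences of Il34 and Csf1 turned below 0 in at least 1 alternative setting, with lowest values of -0.0016 and -0.0049.

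P2ry12 and Gpr34 encode G protein-coupled receptors. The first senses ADP and draws microglial processes toward injury, and the second senses lysophosphatidylserine. P2ry12 lay between 6.39 and 6.52 in controls, with a median of 6.44, and between 6.33 and 6.52 after poly(I:C), with a median of 6.42. Poly(I:C) 4 and poly(I:C) 1 were below every control, and poly(I:C) 6 was above every control. The difference, -0.034 ± 0.036 (SE; interval -0.11 to 0.043; limma adjusted p = 0.65), lay between -0.059 and -0.017 in the 16 of 23 alternatives that can alter a difference; the other 7 change only the test or the set of probe sets.

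Gpr34 was read from a dim probe set, with 20.4% of all tested probe sets dimmer. It ranged from 3.99 through 4.11 to 4.24 in controls and from 4.02 through 4.11 to 4.15 after poly(I:C). Both controls at the ends of the range, control 6 and control 5, lay outside the poly(I:C) values. The difference was -0.011 ± 0.038 (SE; interval -0.092 to 0.069; limma adjusted p = 0.90), and it was 0.014 without control 5 and 0.0030 without poly(I:C) 5.

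**Figure D2:**
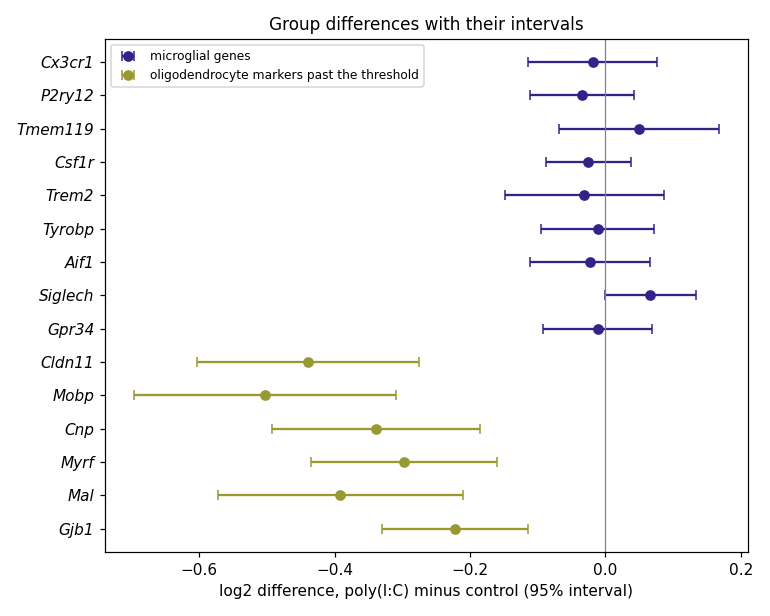
Difference of group means (poly(I:C) minus control, log2) with its 95% interval for the 9 microglial genes and for the 6 oligodendrocyte markers past the adjusted threshold. The microglial intervals all include 0 and stay between -0.15 and 0.17, and the oligodendrocyte differences lie between -0.50 and -0.22.

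Trem2 encodes a surface receptor for lipids and lipoproteins, and Tyrobp encodes DAP12, the adaptor that Trem2 needs to signal into the cell. Trem2 ran from 6.36 through 6.41 to 6.601 in controls and from 6.31 through 6.40 to 6.63 after poly(I:C). Controls 2 and 3 and poly(I:C) 5 stood high, between 6.58 and 6.63, and the next animal, poly(I:C) 3, was at 6.46. The group difference was -0.031 ± 0.055 (SE; interval -0.15 to 0.086; limma adjusted p = 0.81). Leaving out 1 animal moved it between -0.072, without poly(I:C) 5, and -0.0019, without control 2.

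Tyrobp was likewise high in control 3 and poly(I:C) 5. It ran from 6.29 through 6.35 to 6.45 in controls, with control 3 at the top, and from 6.26 through 6.33 to 6.48 after poly(I:C), with poly(I:C) 2 lowest and poly(I:C) 5 highest. The difference was -0.011 ± 0.039 (SE; interval -0.095 to 0.072; limma adjusted p = 0.91). It was above 0 when control 3 was left out (0.0077), and likewise for poly(I:C) 1 (0.00050) and 2 (0.0058).

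Siglech, Tmem119 and Aif1 are markers that separate microglia from other brain cells. Siglech encodes a sialic acid-binding lectin that also signals through DAP12, Tmem119 a membrane protein used to tell microglia from blood-derived macrophages, and Aif1 the calcium-binding protein IBA1 used to stain microglia. Siglech had the largest difference of the 9. Its controls ran from 5.95 through 6.02 to 6.08 and its poly(I:C) samples from 6.01 through 6.09 to 6.15, with 5 of 6 exposed animals over the mean of controls. Control 3, at 6.08, lay within the poly(I:C) range and poly(I:C) 3, at 6.01, below the control mean. The difference of 0.066 ± 0.032 (SE; interval -0.0012 to 0.13) did not pass, with a limma adjusted p of 0.27 and an unadjusted p of 0.054. Over the same 16 alternatives it lay between 0.048 and 0.082.

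Tmem119 varied more after poly(I:C) than in controls by SD, 0.14 against 0.062, a difference in spread that was not tested. Its controls lay between 6.81 and 6.98, with a median of 6.89, and its poly(I:C) samples between 6.68 and 7.08, with a median of 7.00. Poly(I:C) 2 was the lowest of all animals, and poly(I:C) 3, 4, 5 and 6 were above every control. The difference was 0.049 ± 0.056 (SE; interval -0.068 to 0.17; limma adjusted p = 0.67), and without poly(I:C) 2 it was 0.10 (limma adjusted p = 0.15). It was 0.023 without poly(I:C) 5, 0.032 without control 4 and 0.018 after quantile normalization. Aif1 ran from 5.40 through 5.51 to 5.58 in controls and from 5.38 through 5.49 to 5.59 after poly(I:C). Its groups covered almost the same range and differed by -0.023 ± 0.042 (SE; interval -0.11 to 0.066; limma adjusted p = 0.81). Leaving out 1 animal moved this between -0.045, when poly(I:C) 3 was absent, and -0.0033, when poly(I:C) 1 was.

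Animals differed from each other more than the groups did. The mean of the 9 genes was 6.34 ± 0.030 over control animals and 6.34 ± 0.049 over exposed animals (SD, n = 6). Poly(I:C) 2 had the lowest mean of the 12 animals, 6.26, and poly(I:C) 5 the highest, 6.40. In poly(I:C) 5, 8 of the 9 genes lay above their mean over all animals, and in poly(I:C) 2, as in control 4, 1 of 9 did.

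The genes were then compared with each other across the 12 animals, with each group centred on its own mean so that no group difference enters. Of the 36 pairs 25 had a Pearson r above 0, and 15 were above 0 within both groups, with a median of 0.19 and a range from -0.49 for Aif1 and Siglech to 0.88 for Trem2 and Tyrobp. The latter pair had r = 0.88 (permutation p = 0.00062, two-sided, within groups, 100000 permutations; adjusted over 36 pairs 0.022) and Spearman's rho = 0.81 (permutation p = 0.0028, adjusted 0.050). Its r was 0.83 in controls and 0.93 after poly(I:C), and 0.86 without the 2 animals farthest from the median of Trem2, control 2 and poly(I:C) 5. By r it was the 1 pair of 36 that passed after adjustment, and 3 pairs passed before it. By rho Tmem119 and Trem2 passed as well (rho = 0.80, permutation p = 0.0021, adjusted 0.050), but their r was 0.65 (permutation p = 0.042, adjusted 0.38) and was 0.48 without poly(I:C) 2 and poly(I:C) 5.

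Gpr34, read from a dim probe set, had the lowest median r with the other 8 genes, -0.29, and no pair with it passed after adjustment. The median was 0.030 for Siglech, 0.098 for Cx3cr1, 0.14 for Aif1 and 0.18 for P2ry12. For Tmem119 this median was 0.49, for Tyrobp 0.42, for Csf1r 0.34 and for Trem2 0.34. For each of the 9 genes the median r with all 18811 other genes lay between -0.026 and 0.054. The values of 1 animal come from 1 array, so anything that shifts many probe sets of an array together enters these correlations.

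**Figure D3:**
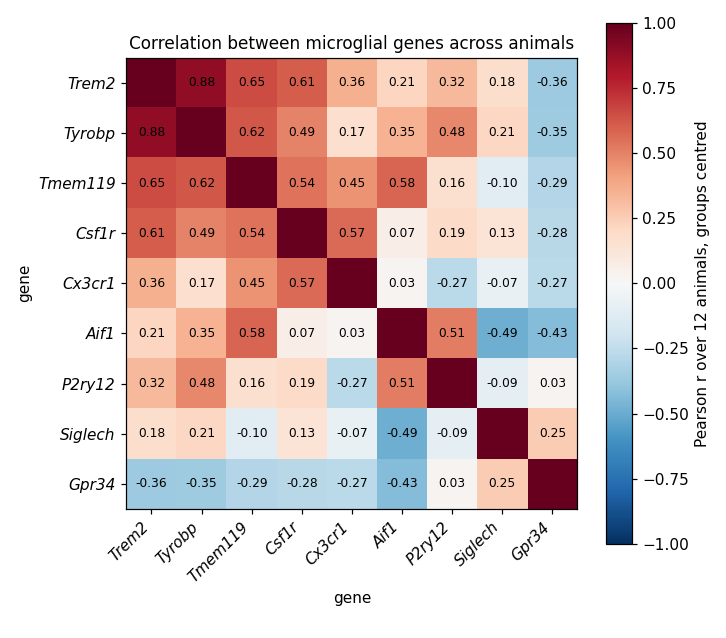
Pearson r between each pair of microglial genes over the 12 animals, each group centred on its mean, with the colour scale from -1 to 1. The highest value is that of Trem2 and Tyrobp (0.88), the 1 pair that passed by r after adjustment, and 25 of the 36 pairs are above 0.

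The genes whose pattern was most like the mean of the 9 were picked by that likeness, over the 12 animals with groups centred, and are given as a description. The 10 closest were Desi1 (r = 0.93), Rnpep (0.93), Sfxn3 (0.92), Olfml3 (0.92), Mrps18a (0.92), Elavl4 (0.92), Ppp1r10 (0.90), Cat (0.90), Fads1 (0.90) and Nt5c3b (0.89). Olfml3, a secreted protein made in the brain mainly by microglia, was the 1 gene of the 10 that also stands in a list of microglial markers used here. It ranged from 7.99 in poly(I:C) 2 and control 4 to 8.30 in poly(I:C) 6, and its group difference was -0.0082 ± 0.056 (SE; limma adjusted p = 0.95). Whole lists gave lower values: the median r with the mean of the 9 genes was 0.21 for the other microglial markers (23 of 28 above 0), 0.40 for oligodendrocyte markers (10 of 10 above 0), -0.15 for microglial transcription factors (5 of 13 above 0) and 0.057 over all 18811 other genes. It was 0.29 for red cells (2 genes), 0.28 for endothelial cells and 0.24 for perivascular and meningeal macrophages. Lower were signalling partners (0.19), activated microglia (0.18), monocytes and granulocytes (0.17), astrocytes (0.15) and pericytes (0.14). Lymphocytes (0.012), striatal neurons (0.0057) and cortical neurons (-0.10) were lower still. The other microglial markers were thus not the closest list. Elavl4 encodes a neuronal RNA-binding protein and Cat the enzyme catalase. None of the 10 passed the threshold between groups, with adjusted p from 0.33 for Desi1 upward.

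**Figure D4:**
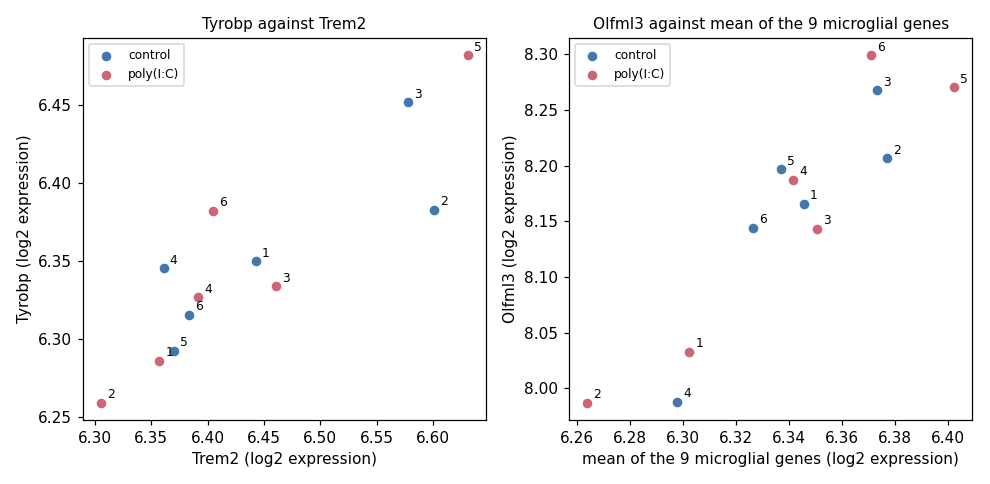
Tyrobp against Trem2 (left) and Olfml3 against the mean of the 9 microglial genes (right), both axes in log2 expression, with each dot an animal marked by its replicate number. In both panels poly(I:C) 2 lies at the low end, and animals of both groups are found at low and high values.

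Of 28 further microglial markers measured 0 passed the threshold, and 12 had a higher and 16 a lower mean. An unadjusted p under 0.05 was found for 4 of them, against 19.1% of all probe sets. The median difference of the 28 was -0.0088, and they are listed by the lowest p. Cd33, an inhibitory sialic acid-binding receptor of myeloid cells, had values from 6.18 to 6.36 in controls and from 6.37 to 6.64 after poly(I:C), with no overlap. Its difference was 0.17 ± 0.048 (SE; limma adjusted p = 0.068), which passed under 2 of 23 alternatives, with the replicate number as a block (0.039) and among probe sets at or above the median brightness (0.047). Mertk, a receptor for the uptake of dying cells, differed by 0.12 ± 0.042 (limma adjusted p = 0.14), and it passed without poly(I:C) 6, the 1 poly(I:C) animal below all controls (0.15, limma adjusted p = 0.034). Selplg, a selectin ligand, differed by -0.078 ± 0.033 (limma adjusted p = 0.20) and Sall1, a transcription factor of microglial identity, by -0.098 ± 0.044 (limma adjusted p = 0.23).

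Transcription factors of microglia gave the same count. Of 13 measured 0 passed, 2 had an unadjusted p under 0.05 (19.1% of all probe sets did), and 5 were higher and 8 lower in mean. The lowest p-values were those of Mef2a (0.071 ± 0.032), Nfatc2 (-0.083 ± 0.039), Cebpa (-0.12 ± 0.057) and Mef2c (0.059 ± 0.029), with limma adjusted p from 0.24 to 0.28. Mef2a and Mef2c are also expressed by cortical neurons.

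The list of ligands and signalling partners also holds genes of TGF-beta signalling. Of its 21 measured genes 0 passed and 3 had an unadjusted p under 0.05, against 19.1% of all probe sets. Apoe, an apolipoprotein that binds Trem2 and is made in the brain mainly by astrocytes, was 10.94 to 11.09 in controls and 10.86 to 10.93 after poly(I:C), with no overlap. Its difference was -0.11 ± 0.032 (SE; limma adjusted p = 0.065). This passed without control 4 (0.049), among probe sets at or above the median brightness (0.039) and with trended, robust moderation (0.020). Vav1, an exchange factor downstream of DAP12, differed by -0.089 ± 0.036 (limma adjusted p = 0.19), and Itgb8, the integrin that activates TGF-beta, by 0.12 ± 0.051 (limma adjusted p = 0.22). The fourth by p was Clu, the apolipoprotein clusterin, at -0.063 ± 0.033 (limma adjusted p = 0.32).

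Genes of activated or disease-associated microglia gave no call either. Of 25 measured 0 passed, 18 had a lower and 7 a higher mean, and the median difference was -0.022. An unadjusted p under 0.05 was found for 4 of the 25, against 19.1% of all probe sets. All 4 were lower in mean: the lysosomal protease Ctsz (-0.14 ± 0.047, limma adjusted p = 0.11), Cd74, the invariant chain of MHC class II (-0.17 ± 0.058, 0.13), the tetraspanin Cd63 (-0.20 ± 0.078, 0.18) and the protease inhibitor Cst7 (-0.11 ± 0.046, 0.18). Cd63 passed without control 4 (-0.26, limma adjusted p = 0.042). Astrocytes and oligodendrocytes also express Cd63.

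Other macrophages and blood cells could share some of the 9 genes. Of 11 markers of perivascular and meningeal macrophages 0 passed and 2 had an unadjusted p under 0.05, Siglec1 (0.083 ± 0.036) and Stab1 (0.082 ± 0.037), with limma adjusted p of 0.22 and 0.24. The mean of this list ran from 4.24 to 4.35 in controls and from 4.26 to 4.31 after poly(I:C). Of 12 markers of monocytes and granulocytes 0 passed and 0 had an unadjusted p under 0.05, with list means of 4.17 to 4.25 and 4.11 to 4.37. Lymphocyte markers gave 0 calls of 10 and 2 unadjusted p under 0.05, with Cd3g at -0.12 ± 0.033 (limma adjusted p = 0.061; 0.042 without control 4), and 9 of the 10 had lower means. Of all probe sets 19.1% had an unadjusted p under 0.05. Whether these other macrophages and blood cells bear on the microglial values was not tested.

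Among the lists of other brain cells, calls were found for oligodendrocyte and striatal neuron markers only. At the same threshold 2.83% of all probe sets tested were called, 2.02% higher and 0.805% lower after poly(I:C). The lists were chosen with earlier results of these data known, so their counts are given as a description. Of 10 oligodendrocyte markers 6 fell (Cldn11, Mobp, Cnp, Myrf, Mal and Gjb1) and 0 rose, with all 10 lower in mean, and the list mean ran from 7.37 to 7.73 in controls and from 6.96 to 7.45 after poly(I:C). Their differences ran from -0.50 for Mobp to -0.22 for Gjb1. Without control 2 or poly(I:C) 1 the number of oligodendrocyte calls was 2, and without control 3 or poly(I:C) 4 it was 3. Of 8 striatal neuron markers 1 fell, Ppp1r1b, and all 8 were lower in mean. Striatal list means were 6.39 to 7.06 in controls and 6.34 to 6.49 after poly(I:C), and controls 5 and 6 had the highest, 7.06 and 6.91. These 2 animals were left out together for that reason: the median striatal difference was then -0.11 in place of -0.27, that of Drd2 -0.25 in place of -0.54 and that of Penk -0.0080 in place of -0.31. Leaving out any 1 of 5 animals ended the Ppp1r1b call: in controls numbers 2 and 6, and among the exposed numbers 1, 3 and 4. Without controls 5 and 6 the call ended as well (-0.18, limma adjusted p = 0.054). No astrocyte (10), endothelial (9), pericyte (7) or cortical neuron (9) marker passed. The pericyte marker Vtn came nearest, at -0.14 ± 0.036 (SE; limma adjusted p = 0.052), with no overlap between the groups. It passed under 7 of 23 alternatives. With controls 5 and 6 left out, still 0 of the 9 microglial genes passed.

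**Figure D5:**
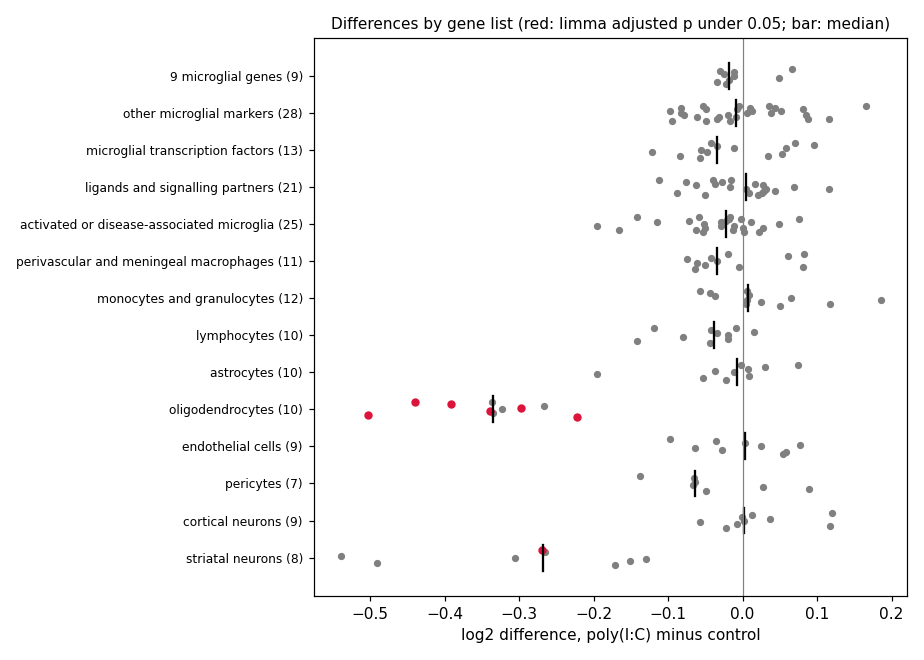
Log2 difference, poly(I:C) minus control, of each measured gene in 14 lists (1 row each, number of genes in brackets), with red dots for genes past a limma adjusted p of 0.05 and black bars for list medians. The 9 microglial genes lie between -0.034 and 0.066, and red dots appear in the rows of oligodendrocytes and striatal neurons.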

How the data were processed

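Affymetrix Mouse Gene 1.1 ST strips were used, per the labels' protocols, which name both IVT and whole-transcript labelling kits; which one was used is unclear, and with it which part of a transcript was labelled. The authors deposited 1 log2 value for each probe set and array. The submitters' processing notes list RMA and Partek 6.6 and give no role for either. An annotation or genome build was not given in the sources used here. Of 35556 probe sets, 21218 carried 1 gene symbol in the platform annotation, 1881 several and 12457 none; 21185 single symbols were updated through RefSeq gene identifiers.

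The 23099 probe sets with a gene were fitted in 1 limma 3.58.1 model (lmFit, eBayes, R 4.3.3), poly(I:C) minus control, with no covariate; two-sided p-values were adjusted by Benjamini-Hochberg over all of them. SE and 95% intervals are the moderated ones. Lists were described by counts and medians. Text names up to 4 genes of each microglia-related list by lowest p, all calls, the 3 ligands and the 10 most alike genes. The genes and lists were chosen with earlier results of these data known. Pairs were permuted in Python 3.11.15. Of 207 listed genes 184 had a single-gene probe set. The labels name no batch, and the main fit had no block. Deviations of same-numbered animals had r of -0.080 to 0.11, which cannot exclude that the numbers pair animals for some genes. The striatal list mean was highest in number 5 of both groups, 7.06 in controls and 6.49 after poly(I:C). Alternatives were a block on replicate number, array weights, 2 scalings, 2 brightness filters, all rows, 2 forms of moderation, probe set means, and leaving out each animal or controls 5 and 6.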

Additional observations from a re-analysis of the deposited data

Results flagged for a closer look

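Among the values of the 9 genes and of their mean, 20 sets of 6 animals were examined for an animal far from the others, and 1 was found; chance flags about 1 in 20 such sets. Csf1r in control 2 was 8.14, with the next control at 8.07, a gap of 0.65 of the range of the controls. The same animal had the highest control value of Cx3cr1 (7.35) and Trem2 (6.601) and the lowest of Aif1 (5.40). Without it the difference of Csf1r was -0.0094.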

How the results depend on the processing

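Across 23 alternatives and 204 values of the 9 genes, 0 were called (lowest limma adjusted p 0.15, for Tmem119 without poly(I:C) 2), and 8 changed sign out of the 144 values that the settings can alter (the other 60 come from 7 settings that leave a difference as it is), 3 for Cx3cr1 (0.012 without controls 5 and 6), 3 for Tyrobp and 2 for Gpr34. Leaving out 1 animal gave differences of -0.038 to 0.0045 for Cx3cr1, -0.039 to 0.0077 for Tyrobp and -0.035 to 0.014 for Gpr34. Gpr34 was absent from both brightness filters and Aif1 from the stricter one. Of all probe sets 653 were called, 467 higher and 186 lower; 239 and 285 after quantile normalization, 298 and 232 after median centring, which moved the median difference by -0.013 and -0.010. The number called was 414 over all rows, 122 without moderation and 230 to 818 with 1 animal left out. With the replicate block 536 were called, with 1 of the other microglial markers, 10 oligodendrocyte and 4 striatal markers, and no microglial gene of the 9. In the lists the number called was 2 striatal with array weights; 1 pericyte marker (Vtn) after quantile normalization, with the 25th percentile filter, with trended and robust moderation and without controls 5 and 6; 1 each of other microglial markers, signalling partners and pericytes with the 50th percentile filter; 1 signalling partner with trended and robust moderation; 2 oligodendrocyte and 0 striatal over all rows; 0 of both without moderation; and 0 striatal without controls 5 and 6. With 1 animal left out it was 2 to 8 for oligodendrocytes, 0 to 3 for striatal neurons, and 0 to 1 for other microglial markers, signalling partners, activated microglia, lymphocytes and pericytes.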

Other observations

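Chosen after their values were seen, 3 myeloid genes stood high in poly(I:C) 4: Ngp, a neutrophil granule gene (5.04, beside 4.01 to 4.46 in controls), Lyz2, lysozyme (5.65, beside 4.81 to 5.31) and S100a8 (4.75, beside 4.13 to 4.45). Its partner S100a9 was 4.92 there, beside 4.77 to 5.10 in controls. The mean of the 9 microglial genes in poly(I:C) 4 was 6.34, equal to the control mean at this precision. None of the 3 genes differed between groups past the threshold (Ngp 0.19 ± 0.14, limma adjusted p = 0.50).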
